A study of Oryza sativa with 6 samples.

Results

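The genes described here encode the enzymes at the entry of phenylpropanoid metabolism, namely phenylalanine ammonia-lyase (PAL) and 4-coumarate:CoA ligase (4CL). Members were chosen by name, as probe sets whose single gene is called PAL with a number or 4CL with a number in the array annotation or the rice gene table. All 6 genes found in the gene table, PAL06 and 4CL1 to 4CL5, were measured, by 8 of the 57258 probe sets tested. They are 6 of the 17905 genes that the tables tie to a probe set. Shoot tips of *Osrdr1* seedlings, a line homozygous for a *Tos17* insertion in the second exon of *OsRDR1* that stems from a single insertion line, were compared with those of sibling WT plants, which segregated from the same heterozygous parents after repeated selfing. Both genotypes are in the variety Hitomebore. Germination took 2 days at 28 °C in dishes with water and without light, followed by growth for 48 h at 26 °C under greenhouse conditions (16 h light and 8 h dark), and no stress was applied. Each genotype had 3 biological replicates, with 1 Affymetrix Rice Genome Array each.

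PAL removes ammonia from phenylalanine and so diverts this amino acid from protein synthesis into cinnamate. After a hydroxylation, 4CL joins the resulting coumarate and related acids to coenzyme A, and these thioesters feed the synthesis of lignin, flavonoids and many defence compounds. Both steps are run by small gene families in rice, and their genes are known to respond to light, wounding and infection and to be active where xylem and other secondary walls are laid down. Values below are RMA values on the log2 scale, in which a difference of 1 is 2-fold. Probes bind unequally, so genotypes are compared between arrays, and amounts of RNA are not compared between probe sets. Words such as brighter and dim refer to signal alone. A level summed over a list rests mostly on its probe sets of highest signal.

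The 6 arrays had medians between 4.87 and 4.96, and the median of all values was 4.91. At an adjusted p under 0.05 from limma, 1.57% of all probe sets were higher and 0.506% were lower in *Osrdr1*. The OsRDR1 gene itself could not be matched to a probe set by the tables used here, so the genotype labels have no check from the arrays. For bioB, a bacterial control RNA, WT replicate 3 gave a mean of 9.2 where the remaining arrays gave 8 to 8.54. It also had the lowest value of all 6 arrays in 6 of the 8 PAL and 4CL probe sets, so values without it are given for each gene. Among markers of the tissue, RBCS, the small subunit of Rubisco, reached 13.7 in *Osrdr1* and 13.2 in WT on its brightest probe set, while the root gene OsCASP1, the only root marker read, lay below the median of the arrays on all 3 of its probe sets. As the samples are bulk tissue, fewer cells of a type and less RNA per cell cannot be told apart.

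Of the 6 genes, PAL06 alone was called different between genotypes at an adjusted p under 0.05, and it was higher in *Osrdr1* on both of its probe sets. 4CL3, 4CL5 and the brighter probe set of 4CL4 had separate but smaller or more variable values and missed the threshold, and 4CL1 and 4CL2 overlapped between genotypes. In all, 2 of 8 probe sets were called, both higher, while 2.08% of all probe sets were called (1.57% higher and 0.506% lower). At an unadjusted p under 0.05 from limma, 5 were higher and 0 lower, while 14.3% of all probe sets passed (8.16% higher and 6.14% lower). In these 5, the 3 *Osrdr1* values lay above the 3 WT values, as they did in 10% of all probe sets, and in none did they lie below, as they did in 8.83% of all. The median log2 fold change of the 8 was 0.43, against -0.01 for all probe sets.

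PAL06, first described under the name ZB8, lies on chromosome 2. Its probe set Os.25687.1.S1_at had log2 values of 9.47, 9.33 and 9.65 in *Osrdr1*, against 8.73, 8.33 and 8.41 in WT. The groups stood 0.606 apart at their nearest values, and that gap was wider than the range within either genotype (0.32 in *Osrdr1* and 0.4 in WT). The means were 9.49 ± 0.16 in *Osrdr1* and 8.49 ± 0.21 in WT (SD, n = 3 each). The log2 fold change was 0.997 (standard error 0.13, 95% interval 0.689 to 1.304, adjusted p = 0.0192 from limma), which is 2-fold with an interval of 1.61 to 2.47. By p-value this probe set ranked 302 and by fold change 136 among all those tested.

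The other PAL06 probe set, Os.25687.1.S1_x_at, was designed on the same transcript sequence, so it is a second reading of the same RNA and not a further replicate. The x in its name marks probes that may also match other sequences, such as those of related genes. It had log2 values of 9.18, 9.0 and 9.25 in *Osrdr1*, against 8.48, 8.29 and 8.16 in WT. Its groups were also separate, and its log2 fold change was 0.83 (standard error 0.11, 95% interval 0.57 to 1.09, adjusted p = 0.0194 from limma). Among the 6 fits that each left out 1 array, limma kept the call on both probe sets without WT replicate 3 (log2 fold change 0.96, adjusted p = 0.0414, and 0.76, adjusted p = 0.0345). It lost the call without each of the other 5 arrays, with adjusted p from 0.0578 to 0.109 on the first probe set and log2 fold changes from 0.91 to 1.12. Those 5 fits called 0 to 159 of all probe sets higher and 0 to 22 lower, against 801 and 419 without WT replicate 3.

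**Figure D1:**
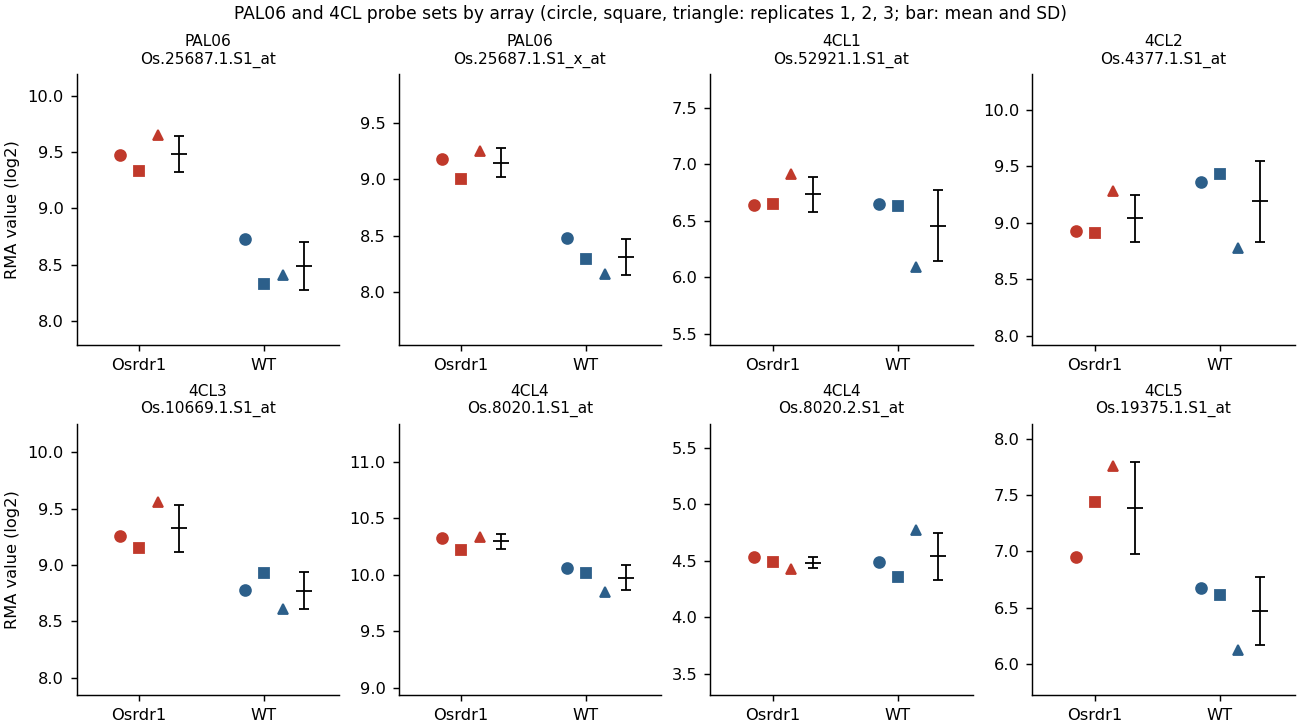
RMA values (log2 scale, y axis) of the 8 probe sets of PAL06 and 4CL1 to 4CL5 on the 3 *Osrdr1* arrays (left in each panel) and the 3 WT arrays (right). Symbols mark replicates 1 to 3, bars show the mean and SD, and every panel spans the same height. The genotypes are separate in both panels of PAL06, in 4CL3, in 4CL5 and in 1 of the 2 panels of 4CL4.

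Of the ligases, 4CL3 and 4CL4 are those read at high signal with separate groups. In rice, 4CL3 is known as the isoform that serves lignin synthesis. It lies on chromosome 2 and had log2 values of 9.26, 9.15 and 9.56 in *Osrdr1*, against 8.78, 8.93 and 8.61 in WT. The lowest *Osrdr1* array exceeded the highest WT array by 0.224, which is less than the range within either genotype (0.41 in *Osrdr1* and 0.32 in WT). The log2 fold change was 0.55 (standard error 0.13, 95% interval 0.24 to 0.86, adjusted p = 0.0903 from limma), which is 1.46-fold. Without WT replicate 3 it was 0.47 (adjusted p = 0.148 from limma).

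4CL4, also named RAL1 after a mutant with altered aluminium resistance of its roots, lies on chromosome 6 and has 2 probe sets that disagree. On Os.8020.1.S1_at, the values were 10.33, 10.22 and 10.34 in *Osrdr1*, against 10.06, 10.02 and 9.85 in WT. The groups were separate by 0.158 and the log2 fold change was small, at 0.32 (standard error 0.09, 95% interval 0.11 to 0.52, adjusted p = 0.129 from limma). Without WT replicate 3 it was 0.25 (adjusted p = 0.154 from limma). On Os.8020.2.S1_at, the values were 4.53, 4.49 and 4.43 in *Osrdr1*, against 4.49, 4.36 and 4.77 in WT. These overlap and lie below the median of the arrays, so this probe set is not known to be above background, and its log2 fold change of -0.06 (95% interval -0.32 to 0.21, adjusted p = 0.882 from limma; 0.06 without WT replicate 3) carries little on the gene.

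4CL5, on chromosome 8, had the widest difference among the ligases and also the widest spread within *Osrdr1*. Its values were 6.95, 7.44 and 7.76 in *Osrdr1*, against 6.68, 6.61 and 6.13 in WT. The groups were separate by 0.272, while the *Osrdr1* arrays themselves ranged over 0.81. The log2 fold change was 0.91 (standard error 0.23, 95% interval 0.38 to 1.44, adjusted p = 0.1 from limma), nearly that of PAL06 but with a larger error. Without WT replicate 3 it was 0.74 (adjusted p = 0.164 from limma).

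4CL1, on the same chromosome, overlapped between genotypes. It had log2 values of 6.64, 6.65 and 6.91 in *Osrdr1*, against 6.65, 6.63 and 6.09 in WT. Only WT replicate 3 stood below the rest. The log2 fold change was 0.28 (95% interval -0.11 to 0.66, adjusted p = 0.54 from limma), and without that array it was 0.09 (adjusted p = 0.718 from limma).

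4CL2, on chromosome 2, is the rice isoform known for flavonoid synthesis and for a response to ultraviolet light. It had log2 values of 8.93, 8.91 and 9.28 in *Osrdr1*, against 9.36, 9.43 and 8.78 in WT. Here the *Osrdr1* arrays lay below WT replicates 1 and 2 and above WT replicate 3. The log2 fold change was -0.15 (95% interval -0.59 to 0.30, adjusted p = 0.808 from limma), and without WT replicate 3 it was -0.35 (adjusted p = 0.238 from limma). The interval leaves room for a difference of up to 1.23-fold in one direction and 0.665-fold in the other.

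**Figure D2:**
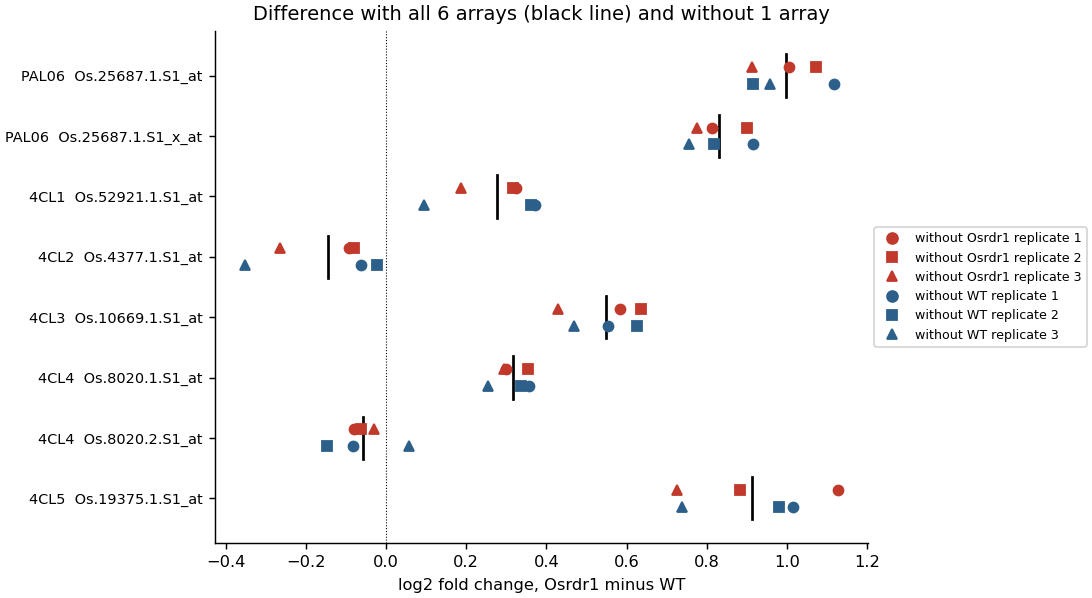
Log2 fold change (*Osrdr1* minus WT, x axis) of the 8 probe sets with all 6 arrays (black line) and with 1 array left out (symbols, coloured by the genotype of the array left out). PAL06 stays between 0.76 and 1.12 over both probe sets, and 4CL1 and 4CL2 have their lowest values without WT replicate 3.

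The replicates within a genotype differed in a way that the genes shared. *Osrdr1* replicate 3 had the highest value of its genotype in 7 of the 8 probe sets, and *Osrdr1* replicate 2 the lowest in 5. In WT, replicate 3 had the lowest value of its genotype in 6 probe sets and replicate 1 the highest in 5. On the dim probe set of 4CL4, replicate 3 was instead the lowest of *Osrdr1* and the highest of WT, and on the first probe set of PAL06 the lowest WT value was that of replicate 2. Without *Osrdr1* replicate 3, the log2 fold changes were 0.91 and 0.78 for the PAL06 probe sets, 0.73 for 4CL5 and 0.43 for 4CL3. What sets these arrays apart was not tested.

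To compare the genes with each other free of array scaling, the difference between each pair of genes was taken within each array, with the brighter probe set for PAL06 and 4CL4. Of 15 pairs, 10 had separate genotypes, each at the smallest p that 3 against 3 arrays allow in a two-sided exact permutation test (exact p = 0.1, adjusted p = 0.15 over the 15 pairs), so this design cannot place any pair under 0.05. The pairs reuse the same probe sets and so are not independent, and the share of separate pairs among other genes was not taken. 4CL2 changed by 1.14 less than PAL06 on the log2 scale, 1.06 less than 4CL5 and 0.70 less than 4CL3. 4CL5 and PAL06 were not separate, with a difference between their changes of -0.08 (exact permutation p = 0.7, adjusted p = 0.75), and neither were 4CL1 and 4CL4, at -0.04 (exact permutation p = 0.8, adjusted p = 0.8).

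In the order of the gene table, PAL06 is preceded on its chromosome by LOC4330034, LOC4330036 and LOC4330037. LOC4330034 carries the name PAL without a number, and so falls outside the rule used here. LOC4330036 has no name in the tables, and LOC4330037 could not be matched to a probe set by them. One of the 5 probe sets of LOC4330034, Os.50466.1.S1_at, was called higher, with values of 9.44, 9.75 and 9.64 in *Osrdr1*, against 9.03, 9.09 and 9.13 in WT. This is a log2 fold change of 0.53 with an error of 0.10 (adjusted p = 0.0442 from limma). The other 4 changed by 0.16 to 0.20, with adjusted p from 0.367 to 0.655 from limma. In 3 of them the genotypes were separate, with *Osrdr1* higher, as in 10% of all probe sets.

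The 3 probe sets of LOC4330036 had log2 fold changes of 0.06, 0.29 and 0.38 (adjusted p = 0.876, 0.374 and 0.129 from limma). All 8 probe sets of these 2 neighbouring genes were thus above 0, where 45.8% of all probe sets were. Of the 8, 1 was called higher, where 1.57% of all were, and 5 were separate with *Osrdr1* higher, where 10% of all were. Each of the 8 changed by less than PAL06. Within arrays, the change of PAL06 on its brighter probe set exceeded theirs by 0.47 to 0.94 on the log2 scale. That probe set had separate genotypes before any subtraction, and a comparison with a neighbour that changed little can keep this separation. Separate genotypes in a comparison thus do not by themselves set PAL06 apart from a neighbour. The share of separate comparisons with other probe sets was not taken. Of the 8 comparisons, 6 had separate genotypes. Exact permutation p-values were 0.1 for these and 0.2 for the other 2, among them the called probe set of LOC4330034 (adjusted p from 0.133 to 0.2 over the 8).

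**Figure D3:**
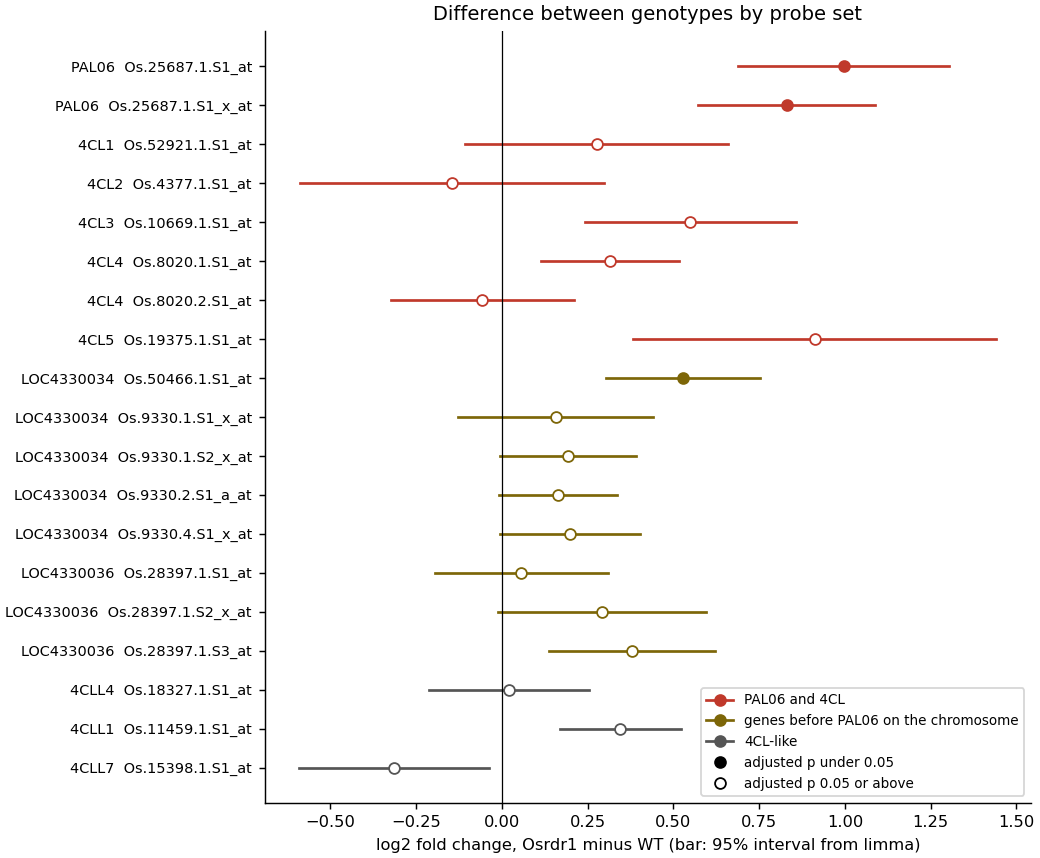
Log2 fold change (*Osrdr1* minus WT, x axis) with its 95% interval from limma for the PAL06 and 4CL probe sets (red), the 2 genes before PAL06 on the chromosome (brown) and the 4CL-like genes (grey). Filled points have an adjusted p under 0.05, and these are both PAL06 probe sets and 1 probe set of LOC4330034.

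The 3 measured 4CL-like genes, whose proteins resemble 4CL and belong to the same enzyme superfamily, went different ways. 4CLL1 had values of 10.92, 10.97 and 10.93 in *Osrdr1*, against 10.66, 10.62 and 10.51 in WT (log2 fold change 0.35, adjusted p = 0.0698 from limma). 4CLL7 had values of 8.75, 8.45 and 8.86 in *Osrdr1*, against 9.10, 8.98 and 8.92 in WT (log2 fold change -0.31, adjusted p = 0.276 from limma). Both were separate between genotypes, in opposite directions, and neither was called. 4CLL4 overlapped, with a log2 difference of 0.02 (adjusted p = 0.959 from limma).

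Around the entry step, genes of the rest of the pathway had mostly positive differences. In the fit reported here, their share of calls was close to that of all probe sets, but this did not hold in every alternative fit. The 5 lists (shikimate path and phenylalanine supply, 4CL-like genes, monolignol branch, flavonoid branch and laccases) held 31 measured genes with 40 probe sets. Of these probe sets 31 had positive and 9 negative log2 fold changes, where 45.8% of all probe sets were positive. At an adjusted p under 0.05 from limma 1 was called higher and 0 lower, where 1.57% and 0.506% of all were. With limma's unadjusted p under 0.05, 19 were higher and 1 was lower, where 8.16% and 6.14% of all probe sets were. The median was 0.30, against -0.01 for all probe sets. The count of calls depended on the fit. With dim probe sets left out 6 were higher, where 1415 of all those kept were. With a variance trend 9 were higher, where 1847 of all were, and with array weights 10, where 2399 of all were. With the trend or the weights the same 40 of 57258 probe sets were tested, and the share of calls in the lists exceeded that of all. No gene named for the hydroxylation between PAL and 4CL, and none of the MYB regulators listed, was matched to a probe set.

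Upstream, in the shikimate path that supplies phenylalanine, none of the 7 probe sets was called, where 2.08% of all were. At an unadjusted p under 0.05 from limma 3 were higher and 0 lower, where 8.16% and 6.14% of all probe sets were. The shikimate kinase SK1 had the largest difference of the list, with values of 6.36, 6.47 and 6.48 in *Osrdr1*, against 5.94, 6.05 and 5.55 in WT (log2 fold change 0.59, adjusted p = 0.0797 from limma). For MTR1, which acts in the last steps to phenylalanine, the log2 difference was -0.15 (adjusted p = 0.487 from limma). At 3 probe sets of the list all *Osrdr1* values lay above those of WT, as in 10% of all probe sets. At 2 probe sets, that of MTR1 and the brighter one of DAHPS2, which encodes the first enzyme of the path, they lay below, as in 8.83% of all. The DAHPS2 probe set had 13.19, 13.3 and 13.19 in *Osrdr1*, against 13.4, 13.32 and 13.48 in WT (adjusted p = 0.382 from limma). It is the brightest of the list and makes up most of its summed level, which overlapped between genotypes, at 13.88 to 13.96 in *Osrdr1* and 13.95 to 14.01 in WT on the log2 scale.

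Downstream, the monolignol branch makes the alcohols that lignin is built from. Of its 15 probe sets 1 was called higher, where 1.57% of all were. It is that of the cinnamyl alcohol dehydrogenase CAD6, with values of 9.03, 9.33 and 9.36 in *Osrdr1*, against 8.55, 8.21 and 8.59 in WT (log2 fold change 0.79, adjusted p = 0.0381 from limma). At an unadjusted p under 0.05 from limma, 8 were higher and 0 lower, where 8.16% and 6.14% of all probe sets were. The list median was 0.31. In the flavonoid branch, chalcone synthase (CHS), its first enzyme, had 11.78, 11.42 and 11.74 in *Osrdr1*, against 11.06, 11.18 and 10.80 in WT on its brightest probe set (log2 fold change 0.64, adjusted p = 0.0667 from limma). The other CHS probe sets changed by 0.36, 0.24, -0.01 and -0.10 (adjusted p from 0.329 to 0.980 from limma). All but the first of these lay below the median of the arrays. For chalcone isomerase (CHI) the log2 difference was 0.40 (adjusted p = 0.0558 from limma). None of the 6 probe sets of this branch was called, where 2.08% of all were.

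Laccases join monolignols into lignin in the cell wall, and several of them are targets of miRNAs. Of 9 laccase probe sets none was called, where 2.08% of all were. At an unadjusted p under 0.05 from limma 4 were higher and 0 lower, where 8.16% and 6.14% of all probe sets were. LAC3 had values of 7.56, 7.51 and 7.80 in *Osrdr1*, against 6.51, 7.13 and 6.55 in WT (log2 fold change 0.90, adjusted p = 0.0533 from limma).

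Cellulose synthases of the secondary wall were read as markers of xylem and other lignified cells. All 4 probe sets of CESA4, CESA7 and CESA9 had positive log2 fold changes, from 0.57 to 0.72, where 45.8% of all probe sets were positive. Of the 4, 2 were called higher (CESA4, adjusted p = 0.0478, and CESA9, adjusted p = 0.045, from limma), where 1.57% of all were. The summed level of the 4 was 11.6 to 12.08 in *Osrdr1* and 11.13 to 11.3 in WT, so the genotypes were separate. Their part in the values of PAL06 and of the ligases was not tested.

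**Figure D4:**
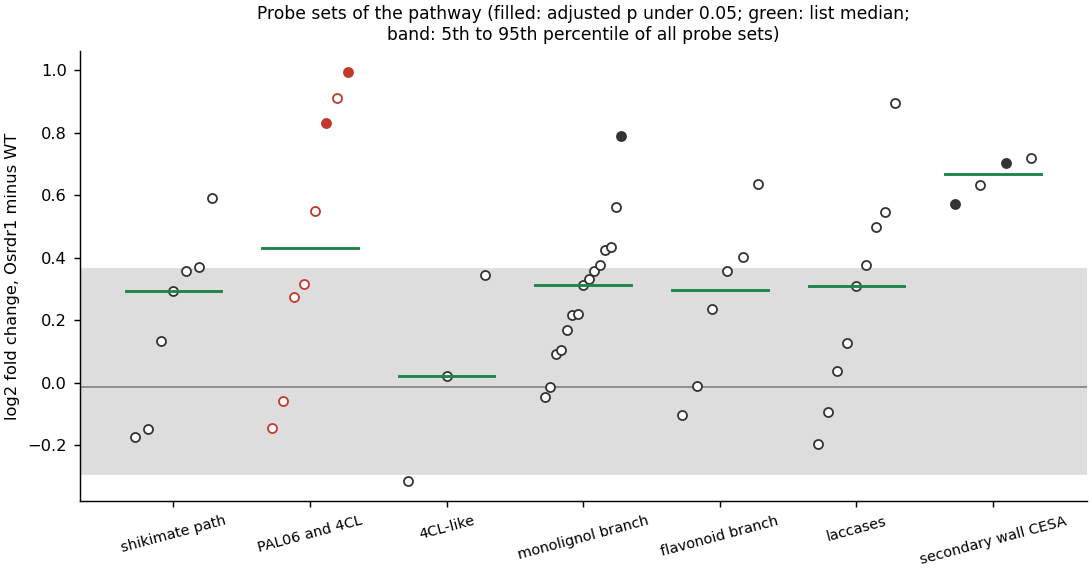
Log2 fold change (*Osrdr1* minus WT, y axis) of each probe set in the lists of the pathway, from the shikimate path to the laccases, and of the secondary wall cellulose synthases. Filled points have an adjusted p under 0.05 from limma, green lines are list medians, and the grey band runs from the 5th to the 95th percentile of all probe sets (-0.29 to 0.36).

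Other marker lists were read in the same way, where 45.8% of all probe sets were above 0, 1.57% were called higher and 0.506% were called lower. Photosynthetic leaf genes had 9 of 9 probe sets above 0 with 4 called higher, and a summed level of 15.63 on every *Osrdr1* array against 15.15 to 15.31 in WT. Shoot meristem genes had 6 of 6 below 0 with 1 called lower, and a summed level of 7.1 to 8.13 in *Osrdr1* against 8.57 to 9.94 in WT. The list of wounding and jasmonate genes, signals known to induce PAL in plants, had 22 of 28 probe sets above 0 with 1 called higher, and its summed level overlapped, at 15.74 to 16 in *Osrdr1* and 15.65 to 15.83 in WT. The called gene was JAZ11, of a family of jasmonate-induced repressors of the jasmonate response, with 8.31, 9.33 and 9.35 in *Osrdr1*, against 7.37, 6.82 and 7.28 in WT (log2 difference 1.84, adjusted p = 0.0316 from limma). Genes of the response to low oxygen had 4 of 4 below 0 with none called, and a summed level of 12.01 to 12.09 in *Osrdr1* against 12.18 to 12.66 in WT. WT replicate 2 was the highest of them, and without it PAL06 had log2 fold changes of 0.92 and 0.82. Glutelin genes of the seed had 1 of 6 above 0, and this one was called higher. On the brightest probe set of each list, differences ran in both directions. CAB2R, a chlorophyll-binding protein, averaged 14.07 in *Osrdr1* and 13.83 in WT, and the meristem gene OSH71 averaged 4.998 in *Osrdr1* and 7.43 in WT. CESA7 averaged 10.41 in *Osrdr1* and 9.77 in WT. The lipoxygenase LOX1.1, the brightest of the wounding and jasmonate list and 1 of its 6 probe sets below 0, averaged 13.83 in *Osrdr1* and 13.93 in WT, the pyruvate decarboxylase PDC2 11.90 in *Osrdr1* and 12.20 in WT, and the glutelin GLUA-2 7.14 in *Osrdr1* and 6.45 in WT. None of these differences was tested for a part in those of the PAL and 4CL genes.

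The named genes most like PAL06 over the 6 arrays were found by the root mean square difference of log2 values, each probe set centred on its own mean. The search covered the probe sets of 2459 named genes. The nearest of these was ABA8OX2, a hydroxylase that inactivates abscisic acid, at a difference of 0.09, followed by the ammonium transporter AMT2-1 at 0.095, the second probe set of PAL06 at 0.112, the glucosidase BGLU10 at 0.136 and the phytoene synthase OsPSY2 at 0.156. The next named gene was pla2-II, a phospholipase, at 0.158. ABA8OX2 had values of 8.18, 8.13 and 8.35 in *Osrdr1*, against 7.49, 7.28 and 7.28 in WT. It shared with PAL06 the high value of *Osrdr1* replicate 3 and of WT replicate 1, which a choice by likeness over these same values favours. The second probe set of PAL06 ranked 9 among the 57257 other probe sets by this measure, while 4CL5 ranked 695, 4CL3 813, the brighter probe set of 4CL4 2567, 4CL1 4282 and 4CL2 46708. Of the named genes only ABA8OX2 and AMT2-1 lay nearer than that second PAL06 probe set. Probe sets without a gene name were thus also among the nearest. The measure is a description over 6 arrays that share their labels.

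**Figure D5:**
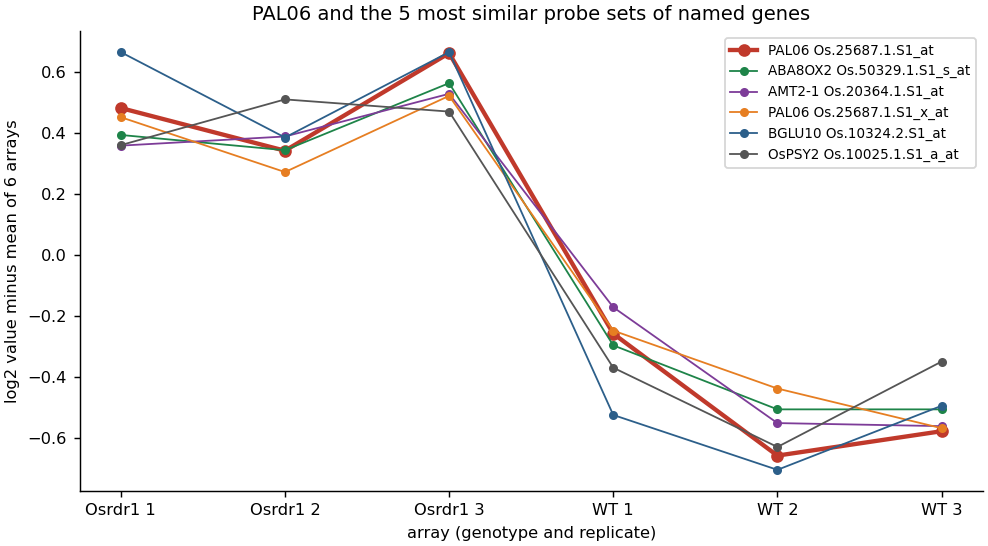
RMA values (log2 scale) minus the mean of the 6 arrays (y axis) for PAL06 (thick red line) and the 5 most similar probe sets of named genes, on each *Osrdr1* array and each WT array (x axis). Lines only join the values of 1 probe set. All 6 probe sets lie above 0 on the *Osrdr1* arrays and below 0 on the WT arrays, which the choice by likeness favours.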

How the data were processed

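Gene expression was measured in shoot tips with 3 *Osrdr1* and 3 WT samples, 1 Affymetrix Rice Genome Array each, from 6 µg of total RNA. Values of 57381 probe sets are log2 values as deposited by the authors, from RMA in Affymetrix Expression Console per the submitters' processing notes (version not given in the sources used here), so background correction, quantile normalization and summary of probes were already done. Detection calls were not used here. After 123 control probe sets were left out, 57258 entered a linear model of genotype alone, with no filter on dim probe sets and moderated variances (lmFit, eBayes; limma 3.58.1, R 4.3.3). There were 4 residual and 3.32 prior degrees of freedom. Benjamini-Hochberg adjustment ran over all of these, and calls were made at an adjusted p under 0.05. The fit was tested on simulated data. Lists and figures were made with Python 3.11.15, pandas 2.3.3, numpy 2.4.6 and matplotlib 3.10.9.

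Names came from the array annotation and a table of rice genes (22436 probe sets with 1 gene, 95 with several, 34727 with none). Genes removed by hand from the lists numbered 3, since their names only share letters with pathway genes. The summed level of a list is the log2 of the sum of its probe sets on the linear scale. The rule for named genes took all members, up to 4 called genes per pathway list, the brightest gene of each marker list and the 5 genes most like PAL06. Other pathway and marker genes were named after their values were seen. The members and lists were chosen with earlier results of these data known. Alternatives changed the dim filter, the scaling, the variance model, the array weights, the fold minimum, the replicate block and the arrays included. Motifs and protein sequences were not analysed here. With 3 arrays a genotype, precision is limited.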

Additional observations from a re-analysis of the deposited data

How the results depend on the processing

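PAL06 kept a positive log2 fold change on both probe sets under all 13 alternatives (0.91 to 1.12 and 0.76 to 0.92). Most of these could not change the sign. Its groups were separate, so leaving out 1 array keeps it, and the dim filter, variance trend, 2-fold rule and block leave the difference itself unchanged. PAL06 was called under 5 of the 7 alternatives that keep all arrays. The exceptions were an unadjusted p with 2-fold (0.9965 and 0.8301, both under the limit of 1) and the replicate block (the same values, adjusted p = 0.0857 and 0.0946 from limma). Without 1 array it was called in 1 of 6 fits. Member calls numbered 4 higher with a variance trend and robust fit and 4 with array weights, where 4CL3 (adjusted p = 0.0394 and 0.0477 from limma) and the brighter probe set of 4CL4 (adjusted p = 0.0484 and 0.0425 from limma) joined PAL06. They numbered 0 with 2-fold, 0 with the block and 0 to 2 without 1 array. At an unadjusted p under 0.05 from limma, 5 member probe sets were higher under every alternative. Over all probe sets, 6345 to 11892 passed this threshold in either direction. No member probe set was called lower, and 1 was lower at an unadjusted p under 0.05 without WT replicate 3.

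Calls over all probe sets, higher and lower, were 901 and 290 as reported, 1415 and 566 with dim probe sets left out, 1041 and 180 with arrays centred on their medians, 963 and 626 after another quantile normalization, 1847 and 849 with the variance trend, 2399 and 1344 with array weights, 131 and 73 with 2-fold, 0 and 0 with the block (6862 at an unadjusted p under 0.05 from limma), and 0 to 801 and 0 to 419 without 1 array (6345 to 9629 at an unadjusted p under 0.05). Calls in the other pathway lists, all of them higher, numbered 1 as reported and then 6, 3, 4, 9, 10, 0 and 0 in the same order. Without 1 array they numbered 0 to 1 (13 to 20 higher at an unadjusted p under 0.05). The labels do not say whether the replicate numbers pair the arrays, so the block is given only here, as an alternative. Deviations from the genotype means correlated at 0.138, -0.147 and -0.271 between arrays of the same number. Between arrays of different numbers they correlated at -0.346 to 0.353. Deviations of 3 arrays sum to 0 within a genotype, so these correlations constrain each other and cannot decide whether the arrays are paired. The second 4CL4 probe set changed sign, uncalled, with array weights (0.06) and without WT replicate 3 (0.06). It was left out with the dim probe sets. The 3 arrays of each genotype limit what can be called.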
